A study of Homo sapiens with 12 samples.

Results

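The miR-29 family consists of 3 guide strands, hsa-miR-29a-3p, hsa-miR-29b-3p and hsa-miR-29c-3p, which were taken by name from the 2588 mature microRNA (miRNA) entries of the deposited table. Their reads were counted in small RNA libraries of HEK293T, an immortalized human embryonic kidney line expressing SV40 large T antigen, after transfection of an siRNA against Tudor-SN or of a control siRNA. Tudor-SN, encoded by SND1, is a nuclease of the RNA-induced silencing complex, and the series asked which mature miRNAs it removes. Each siRNA had 3 libraries in run 1 and 3 in run 2. Run 1 started from RNA enriched for molecules under 200 nt and read gel-purified libraries on a NextSeq, while run 2 started from total RNA and used a Pippin Prep for size selection and a HiSeq. All 4 groups were unedited HEK293T cells that differed by the siRNA and the run, and the knockdown could not be checked because SND1 mRNA was not measured.

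A miRNA guides Argonaute to mRNAs that pair with its seed, the bases next to its 5′ end, and represses them. miR-29 is best known as a repressor of collagen and other extracellular matrix genes, of the cell cycle kinase CDK6, of the survival factor MCL1 and of the DNA methyltransferases DNMT3A and DNMT3B. It falls in fibrosis, where collagen rises, and in several leukemias and lymphomas. In cells, degradation by Tudor-SN has been reported to start with a cut at a CA or UA step inside the miRNA.

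The 3 guides are shown because they carry the same seed (bases 2 to 8, in capitals) and differ beyond it. The sequences are those of RefSeq on GRCh38.p14, written 5′ to 3′.
miR-29a-3p: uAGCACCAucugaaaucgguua
miR-29b-3p: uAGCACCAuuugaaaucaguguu
miR-29c-3p: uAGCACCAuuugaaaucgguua

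Of the 2588 entries, 2281 had a RefSeq mature sequence, and the 3 guides were the only ones of these with AGCACCA at bases 2 to 8. Counted from 1 at the 5′ end, miR-29a-3p and miR-29c-3p differed only by C10U. Against miR-29a-3p, miR-29b-3p had C10U, G18A, U21G and A22U and 1 more base at its 3′ end. Reads of miR-29a-3p and miR-29c-3p that carry a sequencing error at base 10 could have been counted for the other. Their separate values are uncertain to that extent.

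CA and UA steps with at least 5 bases on either side were counted on the guide strand as written. miR-29a-3p and miR-29c-3p each held 1, a CA whose C is base 7, and miR-29b-3p held 2, with a further CA at base 17. Of the 341 miRNAs that were tested in run 2 and had a sequence, 77.7% held at least 1 such step and 36.4% held at least 2. Such a step is therefore common and does not set the family apart.

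The guides come from 4 hairpins in pairs, shown with the guide in capitals because all the guides lie on the 3′ arm.
MIR29A: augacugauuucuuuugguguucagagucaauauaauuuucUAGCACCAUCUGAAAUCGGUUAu
MIR29B1: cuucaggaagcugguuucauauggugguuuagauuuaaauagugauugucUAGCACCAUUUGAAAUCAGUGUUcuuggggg
MIR29B2: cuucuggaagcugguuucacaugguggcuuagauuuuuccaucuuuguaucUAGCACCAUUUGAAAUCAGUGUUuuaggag
MIR29C: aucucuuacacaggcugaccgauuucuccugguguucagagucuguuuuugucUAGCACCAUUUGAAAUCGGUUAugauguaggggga

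MIR29A (chr7:130876747-130876810) and MIR29B1 (chr7:130877459-130877539) lie on the minus strand of chromosome 7, 648 bases apart. In GENCODE release 29, MIR29B1 overlaps an exon of the noncoding gene LINC-PINT, and MIR29A overlaps the end of that gene by 2 bases, also in an exon. Both hairpins also lie within the noncoding genes AC016831.6 and, on the plus strand, LINC00513, without overlapping an exon of either. MIR29B2 (chr1:207802443-207802523) and MIR29C (chr1:207801852-207801939) lie on the minus strand of chromosome 1, 503 bases apart. Both lie within the noncoding host gene MIR29B2CHG and overlap its exons. Mature miR-29b-3p is the same from MIR29B1 and MIR29B2, so its counts could not be assigned to a locus.

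Run 1 libraries held 222452 to 1092713 counts assigned to miRNAs, run 2 libraries held 927727 to 3140214, and every Tudor-SN library held more than every control library of its run. A miRNA with 0 counts could have had up to 3, which is 2.75 to 13.5 CPM (each library's counts brought to a common total size) in run 1 and 0.955 to 3.23 CPM in run 2, for counting error only. The library least like its own group was Tudor-SN replicate 3 of run 2, with a chi-square per degree of freedom of 34.9 and 20.6 against the other replicates, where all other pairs of replicates lay between 2.31 and 8.68. Blood and liver marker miRNAs were at 0 or 1 count in every library. The 3 muscle markers summed to 4.50 to 20.3 CPM in run 1 control and 77.4 to 96.1 CPM in run 1 Tudor-SN libraries, nearly all miR-1-3p. In the run 2 controls they summed to 0 to 1.08 CPM, from 1 count each of miR-1-3p and miR-133a-3p. In the run 2 Tudor-SN libraries they summed to 4.93 to 9.94 CPM, mostly miR-133a-3p, and miR-206 was at 0 throughout. The 4 markers of mesenchymal, collagen-producing cells summed to 70.3 to 85.3 CPM in run 1 control and 44.0 to 88.8 CPM in run 1 Tudor-SN libraries, and to 9.68 to 9.86 and 12.3 to 20.7 CPM in run 2, most of it miR-143-3p, with miR-214-3p at 0 throughout. The 2 epithelial markers summed to 25.9 to 56.9 CPM in run 1 control and 25.6 to 71.4 CPM in run 1 Tudor-SN libraries. All of that was miR-200c-3p, and miR-141-3p was at 0 throughout run 1. In run 2 both were found, and they summed to 15.2 to 21.8 CPM in control and 15.2 to 22.3 CPM in Tudor-SN libraries. The part of depth and of these markers in the values below was not tested.

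miR-29a-3p was the most abundant of the 3 in all 12 libraries, and miR-29c-3p was above miR-29b-3p in 11 of 12. The exception was run 1 Tudor-SN replicate 2, with 20 counts of miR-29c-3p and 21 of miR-29b-3p. The guides are 22 or 23 bases long, so their CPM can be set side by side, apart from differences in how well each is ligated. By mean CPM among the 598 miRNAs with a count in the run 1 controls, miR-29a-3p came 90th, miR-29c-3p 205th and miR-29b-3p 255th. The ranks among the 939 miRNAs of the run 2 controls were 138, 162 and 304. All 3 guides thus lay in the upper part of the ranking of detected miRNAs, with miR-29a-3p highest. In the run 1 controls miR-29b-3p rested on 3 to 5 counts per library, near the detection limit, so its rank there is uncertain. The levels below are CPM with library sizes scaled by TMM, a trimmed mean that sets the bulk of miRNAs equal, within each run.

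miR-29a-3p, which comes from chromosome 7 alone, stood at 194, 251 and 225 CPM in run 1 control replicates 1 to 3 and at 245, 231 and 268 CPM in the Tudor-SN libraries. In run 2 it stood at 127, 120 and 134 CPM in the controls and at 133, 139 and 115 CPM in the Tudor-SN libraries. The siRNA groups overlapped in both runs. Its log2 fold change with Tudor-SN siRNA was 0.15 in run 1 (95% interval -0.20 to 0.49, edgeR adjusted p = 0.543) and 0.04 in run 2 (-0.20 to 0.28, adjusted p = 0.795). In fold terms the run 2 interval ran from 0.869 to 1.21.

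miR-29c-3p, the guide that differs from it by 1 base, stood at 20.2, 40.6 and 28.1 CPM in the run 1 controls, from 5, 11 and 6 counts. It stood at 27.7, 25.7 and 34.3 CPM in the run 1 Tudor-SN libraries. In run 2 the controls were at 80.1, 68.2 and 79.8 CPM and the Tudor-SN libraries at 96.7, 75.6 and 93.9 CPM. In run 2 Tudor-SN replicates 1 and 3 were above every control, but replicate 2 was not, and the groups overlapped. The log2 fold change was -0.05 in run 1 (95% interval -0.91 to 0.81, edgeR adjusted p = 0.957) and 0.23 in run 2 (-0.07 to 0.53, adjusted p = 0.18). The run 1 interval spans a fold of 0.532 to 1.75, on 5 to 31 counts per library.

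miR-29b-3p, which unlike the other guides carries a 3′-terminal motif known to favor its import into the nucleus, was the rarest. From 3, 5 and 3 counts, its levels with control siRNA in run 1 were 12.1, 18.5 and 14.1 CPM. From 21, 21 and 16 counts in the deeper Tudor-SN libraries, they were 18.8, 27 and 23.8 CPM. These groups did not overlap, as for 22.8% of the miRNAs tested in run 1, which separated with the Tudor-SN libraries higher. miR-29b-3p itself was below the count filter in run 1 and was not tested there. With no filter on low counts its log2 fold change was 0.79, with a 95% interval of -0.27 to 1.85 (edgeR adjusted p = 0.517), where the median over all miRNAs was 0.14.

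In run 2, miR-29b-3p stood at 5.72, 21.7 and 9.5 CPM in control replicates 1 to 3, from 5, 36 and 10 counts. The Tudor-SN libraries were at 14.2, 16.2 and 17 CPM, above control replicates 1 and 3 and below control replicate 2. The 3 controls differed by more than read counting (chi-square per degree of freedom 6.33), while the 3 Tudor-SN libraries did not (0.347). Control replicate 2 was not high for the other guides, and had the lowest CPM of miR-29a-3p and of miR-29c-3p among the run 2 controls. The log2 fold change was 0.17 (95% interval -0.54 to 0.88, edgeR adjusted p = 0.688). Without run 2 control replicate 2 it was 1.0 (adjusted p = 0.0476), and without control replicates 1 and 3 in turn it was -0.10 and -0.0027, so a single control library decided whether miR-29b-3p was called.

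**Figure D1:**
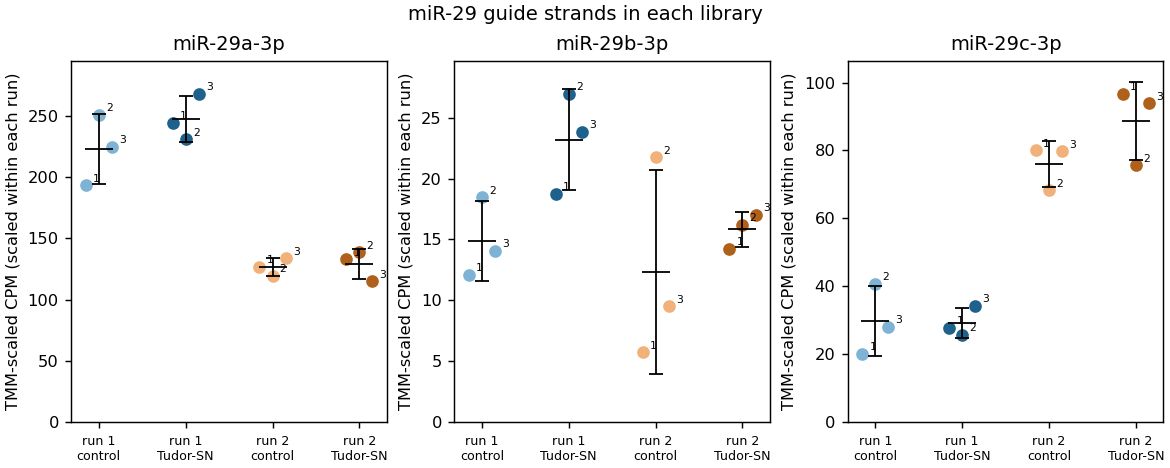
Level of each miR-29 guide (TMM-scaled CPM, scaled within each run) in the 12 libraries, with the mean (bar) and SD (whiskers) of 3 libraries per group; small digits are replicate numbers. The siRNA groups overlap for miR-29a-3p and miR-29c-3p in both runs, and for miR-29b-3p in run 2 through control replicate 2 at 21.7 CPM.

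None of the guides passed the threshold of 0.05 on the adjusted p for the siRNA, with 0 of 2 tested in run 1 and 0 of 3 in run 2. By edgeR 0 had an unadjusted p under 0.05, and by DESeq2 0 passed in either run. Over all miRNAs tested, 44.2% passed in run 1 and 50.9% in run 2. Taken singly, the guides tested were thus among the miRNAs that did not move detectably. The median log2 fold change of the guides was 0.05 in run 1 and 0.17 in run 2, against -0.05 and -0.02 over all tested. The authors' deposited table gave log2 fold changes of 0.27, 0.66 and 0.08 for miR-29a-3p, miR-29b-3p and miR-29c-3p in run 1, with adjusted p of 0.345, 0.445 and 0.92. For run 2 the authors' deposited table gave 0.11, 0.32 and 0.30, with adjusted p of 0.561, 0.551 and 0.167.

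**Figure D2:**
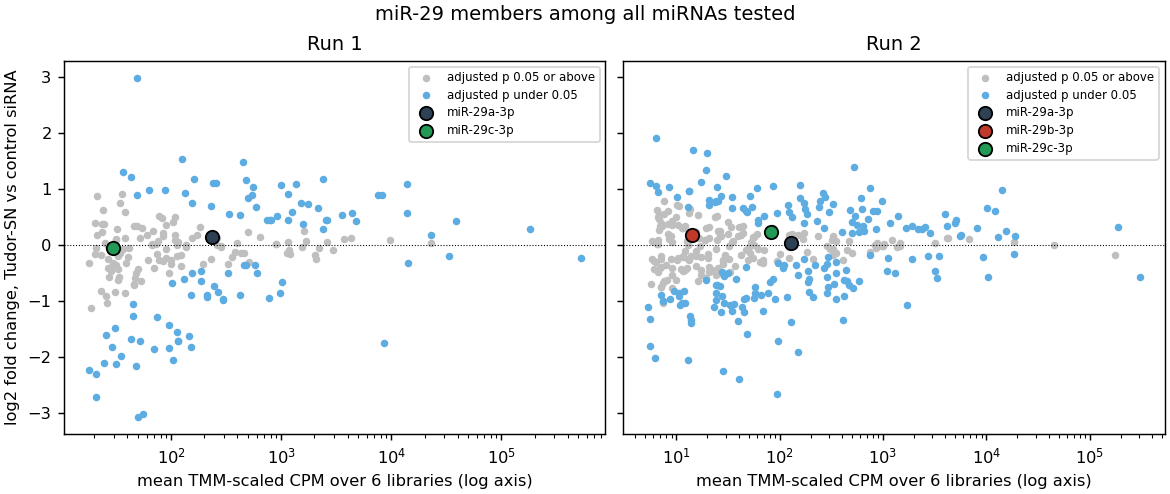
Log2 fold change with Tudor-SN siRNA against mean level (TMM-scaled CPM, log axis) for every miRNA tested in run 1 and run 2, blue where the adjusted p was under 0.05. The miR-29 guides lie near 0, among the grey points, at -0.05 and 0.15 in run 1 and between 0.04 and 0.23 in run 2.

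With all 12 libraries in 1 fit that had the run as a factor, all 3 guides had positive values, and none passed. miR-29a-3p was at 0.18 on the log2 scale (95% interval -0.04 to 0.41, edgeR adjusted p = 0.172), and its fold change lay between 0.973 and 1.33. miR-29c-3p was at 0.29 (-0.05 to 0.63, adjusted p = 0.159) and miR-29b-3p at 0.40 (-0.16 to 0.96, adjusted p = 0.228). The median over all miRNAs tested was 0.04, and 49.5% of them passed. In fold terms the intervals ran from 0.897 to 1.95 for miR-29b-3p and from 0.965 to 1.54 for miR-29c-3p. The values for miR-29a-3p, miR-29b-3p and miR-29c-3p were above those of either run fitted alone, where miR-29b-3p had a tested value in run 2 only. With TMM computed within each run they were 0.13, 0.33 and 0.19, and the median over all miRNAs was -0.04. Without run 2 control replicate 2, miR-29b-3p was at 0.96 (adjusted p = 0.0089). miR-29a-3p passed without run 2 Tudor-SN replicate 3 (0.35, adjusted p = 0.0186), with RLE scaling (0.29, adjusted p = 0.0334) and by DESeq2 (0.28, adjusted p = 0.0213). Those settings also moved the median over all miRNAs, and above that median miR-29a-3p lay at 0.17, 0.15 and 0.15, compared with 0.15 in the reported fit.

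The siRNA effects of the runs did not differ detectably for any guide. Run 2 minus run 1, the log2 difference of effects was -0.06 for miR-29a-3p (95% interval -0.50 to 0.37, edgeR adjusted p = 0.878), -0.37 for miR-29b-3p (-1.64 to 0.89, adjusted p = 0.773) and 0.34 for miR-29c-3p (-0.49 to 1.17, adjusted p = 0.658). By this test 8.99% of all miRNAs passed.

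The runs themselves differed in the make-up of the family, and this was its clearest pattern. miR-29a-3p held 83.6% ± 2.43 of the family's counts with control siRNA in run 1 and 58.9% ± 1.61 in run 2 (SD, n = 3). miR-29c-3p held 10.9% ± 2.10 and 35.3% ± 2.56. The Tudor-SN libraries had the same shift, with miR-29a-3p at 82.6% ± 1.34 and 55.2% ± 4.67 and miR-29c-3p at 9.69% ± 0.742 and 38% ± 4.61. miR-29b-3p held from 5.52% ± 0.374 to 7.75% ± 1.58 in the group means. Its share varied most in the run 2 controls, at 5.77% ± 4.06, with single libraries from 2.69% to 10.4%. The shares of miR-29a-3p and of miR-29c-3p did not overlap between the runs. Among the controls, the levels of 81.8% of all miRNAs tested did not overlap between the runs either, so such a separation is not particular to miR-29. The family's summed CPM, without TMM, were 265 ± 42.4 with control siRNA in run 1 and 207 ± 5.67 in run 2. With Tudor-SN siRNA they were 303 ± 27.8 and 242 ± 18.4. By siRNA, the sums of run 2 did not overlap, at 200 to 211 in the controls and 225 to 262 in the Tudor-SN libraries. Those of run 1 overlapped, at 227 to 311 and 277 to 333. The sums were not scaled by TMM, unlike the levels of single guides, and their difference by siRNA was not tested. The share of all miRNAs that separated by siRNA in run 2 is not given here. Of those tested in run 2, 50.9% passed for the siRNA, so a difference there is not particular to miR-29.

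**Figure D3:**
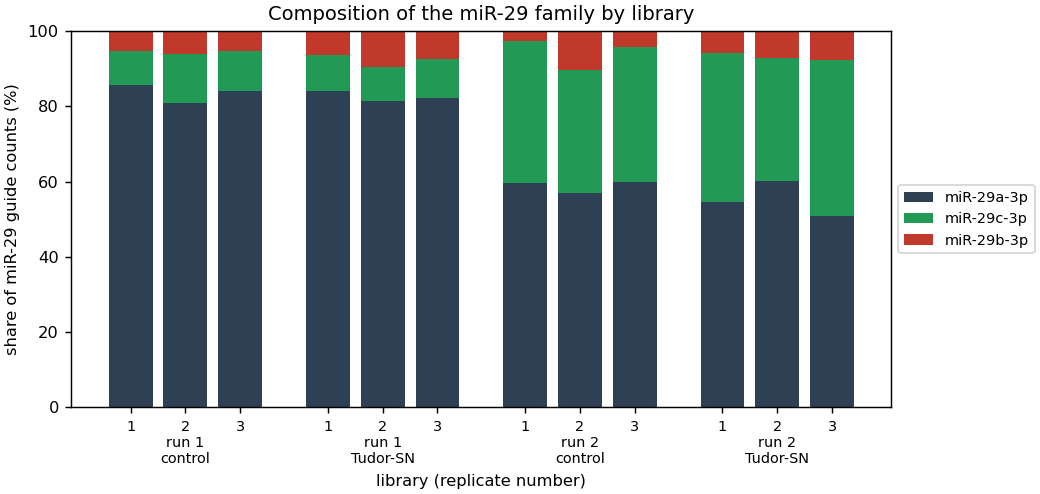
Share (%) of each guide in the summed counts of the miR-29 family, 1 bar per library. miR-29c-3p takes 8.93% to 13.1% of the run 1 libraries and 32.6% to 41.6% of the run 2 libraries, at the expense of miR-29a-3p, whichever siRNA was used.

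The ratio of 2 guides within a library does not depend on how libraries are scaled. Between 0.113 and 0.168 counts of miR-29c-3p were found per count of miR-29a-3p in the 6 libraries of run 1, and between 0.546 and 0.817 in those of run 2. The mean log2 ratio was 2.33 higher in run 2, a 5.03-fold difference (exact permutation of run labels within each siRNA, two-sided, p = 0.005, the smallest that 400 arrangements can give, and 0.0075 adjusted over 3 pairs). The ratio of miR-29c-3p to miR-29b-3p was 4.06-fold higher in run 2 (exact permutation, p = 0.005, adjusted p = 0.0075), and that of miR-29b-3p to miR-29a-3p was 1.24-fold higher (exact permutation, p = 0.345). This test was added after the shift had been seen, so it describes these libraries. Ratios of other pairs of miRNAs were not tested, and most miRNAs differed between the runs. RNA fraction, size selection, sequencer and processing notes all changed with the run and cannot be told apart.

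For the siRNA the same ratios did not differ detectably, with labels permuted within each run. miR-29c-3p to miR-29a-3p changed by -0.0002 on the log2 scale (exact permutation, two-sided, p = 1), with -0.20 in run 1 and 0.20 in run 2. miR-29b-3p to miR-29a-3p was 0.42 higher (p = 0.175 by exact permutation, 0.33 adjusted over 3 pairs). Without run 2 control replicate 2 it was 0.69 higher (p = 0.01 by exact permutation, unadjusted). miR-29c-3p to miR-29b-3p was at -0.42 (p = 0.22 by exact permutation, 0.33 adjusted). Without that library it was at -0.71 (p = 0.005 by exact permutation, unadjusted, the smallest that the remaining libraries can give). Each of the 12 libraries was left out in turn, and this one is given because its miR-29b-3p was high. In run 1 alone miR-29c-3p to miR-29b-3p was at -0.54 (p = 0.1 by exact permutation, 0.3 adjusted over 3 pairs). The groups did not overlap there, with ratios of 1.57 to 2.09 in the controls and 0.953 to 1.47 in the Tudor-SN libraries. Those controls held 3 to 5 counts of miR-29b-3p. In run 2 alone it was at -0.31 (p = 0.7 by exact permutation). With 1 run alone, 3 libraries against 3 cannot give a p below 0.1.

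Among the 6 control libraries alone, miR-29a-3p was lower in run 2 and miR-29c-3p was higher. The log2 fold change was -1.36 for miR-29a-3p (95% interval -1.72 to -1.0, edgeR adjusted p = 5.84e-08) and 0.79 for miR-29c-3p (0.12 to 1.46, adjusted p = 0.029), against a median of 0.18 over all miRNAs tested. Of these, 80.1% passed, so a difference between the runs was the rule and not particular to miR-29. The control levels of miR-29a-3p and of miR-29c-3p did not overlap between the runs, as for 81.8% of all tested, while those of miR-29b-3p did. The signs held under every setting tried, but the sizes did not. By library size alone, which moved the median to 0.68, the values were -0.86 and 1.28, and with no filter they were -0.85 and 1.30 against a median of 1.39, so that miR-29c-3p then lay just below the median. The call of miR-29c-3p ended with upper quartile scaling (0.71, adjusted p = 0.0501) and without run 1 control replicate 1 (0.65, adjusted p = 0.115). miR-29b-3p was too rare for this fit, and with no filter it was at -0.15 (95% interval -1.22 to 0.92, adjusted p = 0.821).

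**Figure D4:**
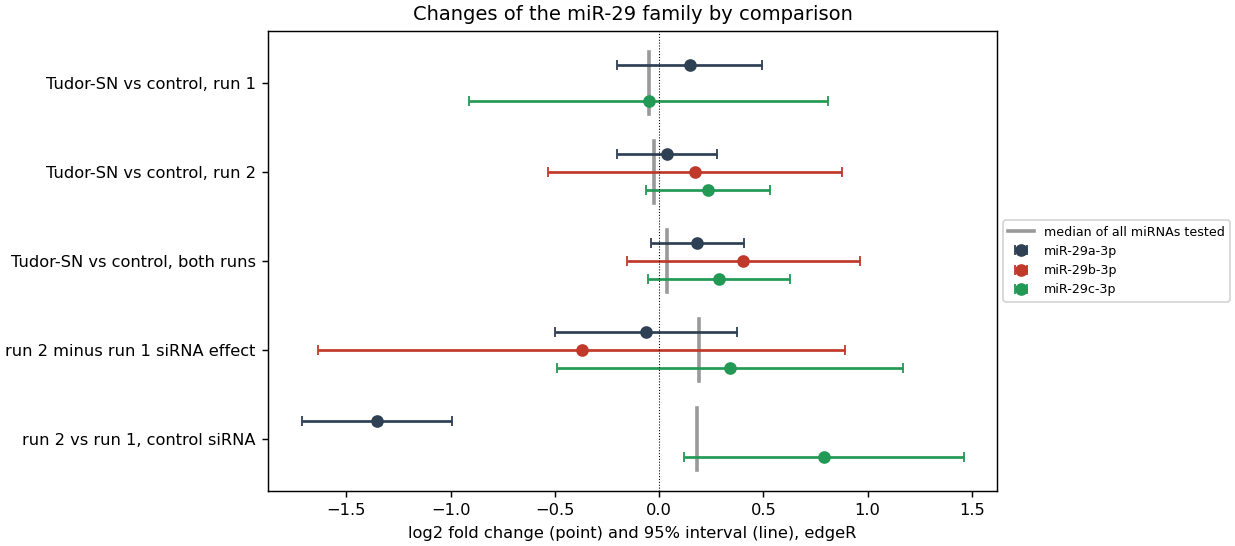
Log2 fold change (points) and 95% interval (lines) of each guide in the 5 edgeR comparisons, with the median of all miRNAs tested as a grey bar. Every interval for the siRNA includes 0, while in the control libraries run 2 against run 1 gives -1.36 for miR-29a-3p and 0.79 for miR-29c-3p; miR-29b-3p was not tested in run 1 or in the controls.

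The 5 miRNAs whose pattern over the 12 libraries was most like miR-29c-3p were not among those of the other guides, while miR-29a-3p and miR-29b-3p had miR-151a-3p and miR-25-3p in common. Likeness was the root mean square difference of centred log2 CPM, among 377 other miRNAs. The 12 libraries span both runs, so likeness includes the difference between the runs and is not a result separate from it. Nearest to miR-29a-3p were miR-148a-3p (0.16), miR-9-5p (0.19), miR-128-3p (0.20), miR-25-3p (0.21) and miR-151a-3p (0.25). Nearest to miR-29c-3p were miR-30c-5p (0.21), let-7e-5p (0.22), miR-450b-5p (0.29), miR-128-1-5p (0.31) and miR-374a-3p (0.33). Nearest to miR-29b-3p were let-7f-5p (0.38), miR-484 (0.40), miR-151a-3p (0.43), miR-1301-3p (0.43) and miR-25-3p (0.44). miR-29b-3p came 38th in likeness to miR-29a-3p (0.51), and miR-29c-3p, with the nearly identical sequence, came 167th (1.19).

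The passenger strands, cut from the opposite arm and mostly discarded, were close to the limit of detection and none was tested. miR-29a-5p had 0 counts in all 12 libraries, beside 798 counts of its guide in run 1 and 1505 in run 2, which allows a passenger share of up to 0.376% and 0.199% by a limit of 3 counts, or 0.461% and 0.245% by the exact 95% interval. miR-29c-5p made up 1.51% of the counts of its hairpin in run 2 (15 counts, exact 95% interval 0.849% to 2.48%) and had 1 count in run 1. The passengers miR-29b-1-5p and miR-29b-2-5p together made up 16.6% in run 2 (35 counts, exact interval 11.8% to 22.3%) and 6.76% in run 1 (5 counts, 2.23% to 15.1%). Of the run 2 counts, miR-29b-1-5p had 13 in the controls and 14 in the deeper Tudor-SN libraries, and miR-29b-2-5p had 1 and 7. The largest share of passenger counts in these summed libraries was thus that of the rarest guide. The shares sum the 6 libraries of a run and their intervals cover counting error only, while replicates varied by more than that, so the shares are given without a test.

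CDK6 is repressed by other miRNAs too, and of 8 such miRNAs listed for comparison 1 passed as higher and 0 as lower among 4 tested in run 1, with 3 higher and 2 lower among 6 tested in run 2. Of all miRNAs tested, 21.4% were higher and 22.8% lower in run 1, and 24% and 26.9% in run 2. let-7a-5p, a repressor of growth-promoting genes, rose by 0.53 in run 1 and 0.17 in run 2 on the log2 scale (edgeR adjusted p = 3.95e-06 and 0.0139). In run 2 the p53 target miR-34a-5p rose by 0.64 (adjusted p = 0.00133) and miR-107 by 0.24 (adjusted p = 0.0112), while miR-449a fell by 0.92 (adjusted p = 0.00126) and miR-16-5p by 0.16 (adjusted p = 0.0148). Their values in run 1 were 0.75, 0.91 and -0.06 for miR-34a-5p, miR-107 and miR-16-5p, with adjusted p of 0.127, 0.0563 and 0.702, and miR-449a was too rare to be tested. The median of the list was 0.64 in run 1 and 0.0056 in run 2, against -0.05 and -0.02 over all tested. miR-195-5p was at -0.20 in run 2 (adjusted p = 0.639), and neuronal miR-124-3p and miR-137 had at most 4 counts in any group. Whether any miRNA of the list changed differently from miR-29 was not tested.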

How the data were processed

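Raw counts per mature miRNA were deposited by the authors for 12 libraries, with 3 libraries per siRNA and run. The authors' table also held a DESeq-normalized signal and RPM, which were not used, and an adjusted p-value and log2 fold change per run. Bowtie2 is the tool that the submitters' processing notes list for both runs, with cutadapt, DESeq and DESeq2 added in run 2. Tool versions, the build, the annotation and the treatment of multiply matching reads were not given in the sources used here.

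Counts were tested over all miRNAs with edgeR 4.0.16 in R 4.3.3 (quasi-likelihood F test, two-sided, TMM, filterByExpr with a minimum count of 10 and total of 15), with Benjamini-Hochberg adjustment and a threshold of 0.05. Standard errors were the log2 fold change divided by the square root of F, and 95% intervals used the moderated degrees of freedom. The fit of both runs had the run as a factor, and a further fit its interaction with the siRNA. Ratios of guides took 0.5 added to each count and exact permutation tests. Likeness of patterns used log2 CPM with a prior count of 2. The fits were tested on simulated counts. Alternatives were RLE, upper quartile and no scaling, no filter, DESeq2 1.42.0, a replicate block and leaving out each library.

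No label ties replicates to separate cultures, so p-values reflect only how these libraries vary, and that variation may be technical. Sequences were matched by name to RefSeq on GRCh38.p14. Members, lists and tests were chosen with earlier results of these data known. Named miRNAs were the 3 guides, their passengers, the listed CDK6 repressors and the 5 nearest patterns of each guide; the marker miRNAs named singly were picked after their values were seen.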

Additional observations from a re-analysis of the deposited data

How the results depend on the processing

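TMM could be replaced without a call on the siRNA for any guide in run 1 or run 2 alone. For both runs, miR-29a-3p passed with RLE (0.29) and DESeq2 (0.28). In run 1 the sign turned for miR-29a-3p with upper quartile scaling (-0.048), which moved the median over all miRNAs from -0.05 to -0.24 and the calls from 48 higher and 51 lower to 33 and 69, and for miR-29c-3p with no filter (0.15). The ratio of miR-29c-3p to miR-29a-3p turned to 0.034 without a pseudocount. Between control runs, miR-29c-3p lost its call with upper quartile scaling (0.71), and 211 miRNAs were higher with no filter, where 988 were tested, against 135 of 302. The interaction called 21 miRNAs higher and 13 lower, but 10 and 34 with RLE, 10 and 29 by DESeq2, 20 lower with upper quartile scaling and 13 higher with no filter. RLE moved its median from 0.19 to -0.06. The cause was not tested.

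Leaving out each library in turn gave, for the siRNA, 0.06 to 0.26 (miR-29a-3p) and -0.26 to 0.28 (miR-29c-3p, which passed the count filter in 3 of 6 such fits) in run 1. In run 2 it gave -0.011 to 0.11 (miR-29a-3p), -0.10 to 1.0 (miR-29b-3p) and 0.15 to 0.35 (miR-29c-3p). In both runs it gave 0.16 to 0.35, 0.24 to 0.96 and 0.21 to 0.46, and for the interaction -0.60 to 0.22, -1.01 to 0.48 and -0.44 to 0.57, in the same order. The interaction then called 7 to 67 higher and 4 to 65 lower. Between control runs miR-29a-3p ranged from -1.37 to -1.16 and miR-29c-3p from 0.65 to 1.21. For the siRNA, the log2 ratio of miR-29b-3p to miR-29a-3p ranged from 0.22 to 0.69, of miR-29c-3p to miR-29a-3p from -0.067 to 0.083 and of miR-29c-3p to miR-29b-3p from -0.71 to -0.20. For the run, miR-29b-3p to miR-29a-3p ranged from 0.041 to 0.52, with a p of 0.04 by exact permutation without run 2 control replicate 1, miR-29c-3p to miR-29a-3p from 2.26 to 2.41 and miR-29c-3p to miR-29b-3p from 1.80 to 2.31.

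Same-numbered libraries deviated together weakly in run 1 and not clearly in run 2. The reported fits did not use the replicate number. The correlation of their deviations was 0.08 to 0.15 in run 1, where 6 of 6 libraries correlated best with their own number. In run 2 it was 0.04 to 0.07, and 4 of 6 did. The highest value in run 2, 0.09, was between control replicate 2 and Tudor-SN replicate 1. With the replicate block no guide passed for the siRNA (both runs 0.18, 0.52 and 0.27), and the interaction called 32 higher and 23 lower. Counts of 3 to 36 in single libraries limit what can be said of miR-29b-3p in the controls.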
